A study of Rattus norvegicus with 34 samples.

Results

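Interferon-stimulated genes are those that cells switch on when interferon, a secreted antiviral protein, binds its receptor. A set of 57 gene symbols of this class, named in a fixed list, was followed in the left ventricle (LV) and in mononuclear cells of the peripheral blood (PBMCs) of male Wistar rats. On the Rat Gene 1.0 ST array, 49 of the 57 symbols had a transcript cluster (the array's unit for a gene, called a gene below) among 29214 in all, and each had exactly 1. The 8 without one of that symbol were Ddx58, Rigi, Gbp1, Gbp4, Parp12, Parp14, Xaf1 and Samhd1. Ddx58 and Rigi are names of the same gene, which the platform table lists as Rig1. Its values are given apart and are not counted among the 49.

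The LV arrays comprised 6 from sham-operated rats, 6 from rats with a small myocardial infarction (S-MI), 6 with a moderate one (M-MI) and 5 with a large one (L-MI). The PBMC arrays comprised 5 L-MI and 6 sham. Samples were collected 2 months after surgery, which tied off the left coronary artery in infarct groups and left the suture untied in sham rats. Age was not given in the sources used here. Infarct size was graded by echocardiography, so a group is a range of infarct sizes. From infarcted rats the scar was removed and the remaining LV was taken, whereas sham LV was taken whole, so operation and the part sampled cannot be told apart. The arrays of a group came from separate rats. The L-MI array numbered 1 carried a description of compensated injury in both tissues, against its title, and was kept as L-MI.

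In outline, viral nucleic acid sensors such as MDA5 (Ifih1) lead to secretion of type I interferon. The interferon receptor then acts through JAK kinases on a complex that holds STAT2 and IRF9 and binds an interferon-stimulated response element in promoters of target genes. IRF7, itself such a target, amplifies the response, and USP18 and SOCS1 restrain it. The products include OAS enzymes and MX GTPases, which act against viral RNA and viral particles, the ubiquitin-like protein ISG15, and immunoproteasome subunits that shape peptides for antigen presentation. Cardiomyocytes, fibroblasts and macrophages all carry the interferon receptor.

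The response element can be looked for in the promoters of the members. RefSeq promoters (build GRCr8, 250 bases before to 50 after the annotated start) were matched by symbol for 38 of the 49 measured members. Isg15, Usp18, Mx2, Oas1k, Oas2, Ifit1, Ifit2, Ifitm1, Dhx58, Rtp4 and Zbp1 had no entry. Its core, GAAA, any 2 bases and GAAA again, on either strand, was present in 27 of the 38 (71.1%), against 3.92% of all 33469 promoters of the same length. A second motif of interferon signalling, TTCNNNGAA, whose reverse complement is itself, was present in 11 of the 38 (28.9%), against 8.87% of all promoters. A match describes the letters and is not evidence of binding. The stretches below lie before the start of 9 members whose values are described further on, read along each gene's own strand. Capitals mark the match to that core nearest the start, which begins with TTTC where it lies on the opposite strand.
Irf7 (chr1:205800058-205800117, minus strand): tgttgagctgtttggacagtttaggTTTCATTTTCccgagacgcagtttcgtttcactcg
Ifit3 (chr1:241527257-241527316, plus strand): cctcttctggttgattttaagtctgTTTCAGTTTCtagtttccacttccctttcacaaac
Oas1a (chr12:41330406-41330465, plus strand): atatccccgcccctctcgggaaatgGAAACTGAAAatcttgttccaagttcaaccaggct
Oas1b (chr12:41395871-41395930, minus strand): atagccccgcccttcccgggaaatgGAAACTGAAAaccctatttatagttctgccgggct
Oas1i (chr12:41285171-41285225, plus strand): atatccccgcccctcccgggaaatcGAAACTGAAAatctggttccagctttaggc
Rsad2 (chr6:48788233-48788292, minus strand): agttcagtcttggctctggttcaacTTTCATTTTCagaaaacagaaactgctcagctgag
Ifitm2 (chr1:205482349-205482406, minus strand): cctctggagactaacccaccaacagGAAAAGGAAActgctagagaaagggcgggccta
Ifitm3 (chr1:205541768-205541827, minus strand): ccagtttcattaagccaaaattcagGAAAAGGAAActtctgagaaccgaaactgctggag
Lgals3bp (chr10:104127864-104127923, minus strand): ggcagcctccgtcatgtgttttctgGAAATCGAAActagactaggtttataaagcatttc
The 3 Oas1 genes share most of this stretch, and in each of them a second match overlaps the capitals. In Ifitm2 and Ifitm3 the match had the same letters, GAAAAGGAAA. The match of Rsad2 began 147 bases before the start, and the other 8 between 30 and 69 bases before it. No match stood in the promoters of Mx1, Herc6, Cmpk2, Stat2, Irf1, Irf9, Trim25, Oasl, Psmb9, Parp9 and Ifi35.

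All values are log2 expression after RMA, so a difference of 1 is a doubling. The median signal per array was 6.52 to 6.61 for LV arrays, and 6.97 to 7.01 for PBMC arrays. The mean of 8 cardiomyocyte markers lay between 13.11 and 13.24 in LV groups, against 6.15 to 6.29 in PBMCs, and 8 T cell markers lay between 11.40 and 11.66 in PBMCs, against 6.31 to 6.80 in LV, so the tissue labels fitted. M-MI replicate 3 in LV and L-MI replicate 2 in PBMCs stood apart from their groups in these genes and are described below, and both were kept. In LV, a gene was called at a fold change of at least 1.3 with an adjusted p of at most 0.05 by limma. In PBMCs it was called at a fold of at least 1.2 with an unadjusted p of at most 0.05. The LV threshold and the PBMC fold follow the study's methods. The methods do not say whether the PBMC p was adjusted, while the heading of the study's PBMC gene list speaks of adjusted values, so results with adjusted p are given beside the PBMC calls.

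In LV of rats with a large infarct, 2 of the 49 members differed from sham, 1 in each direction. That is 4.08% of the members, against 3.22% of all genes (941 of 29214), so the share of members called was close to the background. Ifitm1 was higher and Rsad2 was lower (2.08% of all genes were called higher). The median difference of the members was 0.01, against -0.01 for all genes, and 27 of 49 were above 0, against 48% of all genes. At an unadjusted p under 0.05 stood 6 members (12.2%), against 21.5% of all genes. In the fit without M-MI replicate 3, which adds to the spread shared by the LV groups, 8 members did. The share over all genes was not counted in that fit. The 47 members apart from Ifitm1 and Rsad2 had values in L-MI hearts that overlapped those of sham hearts. Other cell types moved in the same comparison: all 14 measured macrophage markers were called higher with a median difference of 0.77, and 7 of 10 fibroblast markers were called higher with a median of 0.61. Mean macrophage marker levels were 8.61 to 9.18 in L-MI, against 8.08 to 8.36 in sham. Their part in the members' values was not tested. In bulk tissue, fewer cells of a type and less RNA per cell cannot be told apart.

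Ifitm1, which encodes a membrane protein that blocks entry of viruses, had 9.34, 9.32, 9.28, 9.47 and 9.46 in the 5 L-MI hearts. In the 6 sham hearts it ranged between 8.60 and 9.08 with a median of 8.84. All L-MI values lay above all sham values, a pattern held by 3.10% of all genes. The difference was 0.56 ± 0.09 (SE), a 1.47-fold increase (adjusted p = 0.000395). Ifitm1 was not called in the smaller infarcts: S-MI hearts ranged between 8.69 and 9.17 and M-MI hearts between 8.66 and 9.14, and the differences from sham were 0.12 ± 0.09 and 0.07 ± 0.09. L-MI exceeded M-MI by 0.49 (adjusted p = 0.00164) and S-MI by 0.43 (adjusted p = 0.00534), and in both comparisons the groups did not overlap, as for 2.81% and 2.05% of all genes. Of all genes, 2.68% were called against M-MI and 2.48% against S-MI. These 2 comparisons share the L-MI arrays with the one against sham. Ifitm1 was called in each of the 23 fits of L-MI against sham that left out 1 LV array, with a difference of 0.51 to 0.61.

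The other IFITM genes lie close to Ifitm1 on chromosome 1 and encode related proteins. Ifitm2 had a median of 10.05 in L-MI, with a highest value of 10.14, against a median of 9.88 and a highest value of 10.01 in sham. Its difference of 0.18 had an adjusted p of 0.0218 but was under the fold threshold. Against M-MI the Ifitm2 difference was 0.23 (adjusted p = 0.00366), with every L-MI heart above every M-MI heart, again under that threshold. Ifitm3 averaged 11.97 in L-MI and 11.75 in sham, a difference of 0.22 (adjusted p = 0.0506). It missed both thresholds. In limma fits that left out 1 LV array its adjusted p ran from 0.0198 to 0.144, and its difference stayed under the fold threshold. Whether probes of these related genes cross-hybridise was not tested.

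Rsad2 encodes viperin, an enzyme that makes a chain-terminating nucleotide and so stops viral RNA synthesis. It was the one member called lower in L-MI hearts. The 5 L-MI hearts had 6.98, 7.14, 6.59, 6.80 and 6.91. The 6 sham hearts ranged between 7.20 and 7.56 with a median of 7.47, all above the L-MI hearts, a pattern held by 3.87% of all genes. Rsad2 fell by 0.56 ± 0.17 (SE) on the log2 scale (adjusted p = 0.0407), against a background of 1.14% of genes called lower. This call lay near the threshold: it was lost in 9 of the 23 fits that left out 1 array (sham replicate 1, 2, 3, 4 or 6, or L-MI replicate 1, 3, 4 or 5), with adjusted p values between 0.00493 and 0.118, and L-MI stayed lower in all of them. The lowest was the fit without M-MI replicate 3. Without moderation of the variance the adjusted p was 0.0629, and with the replicate number as a block it was 0.0838. Against M-MI, Rsad2 fell by 0.64 in L-MI (adjusted p = 0.022), with overlap, and by 0.47 without M-MI replicate 3. That call too was lost with the replicate block (adjusted p = 0.0528) and with only the 2 groups fitted (adjusted p = 0.0967). Against S-MI the difference was -0.55 (adjusted p = 0.0526). Cmpk2, a mitochondrial nucleotide kinase gene that neighbours Rsad2, differed by -0.22 in L-MI against sham (adjusted p = 0.361). Limma fits that left out 1 LV array gave Cmpk2 adjusted p values of 0.0801 to 0.534.

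**Figure D1:**
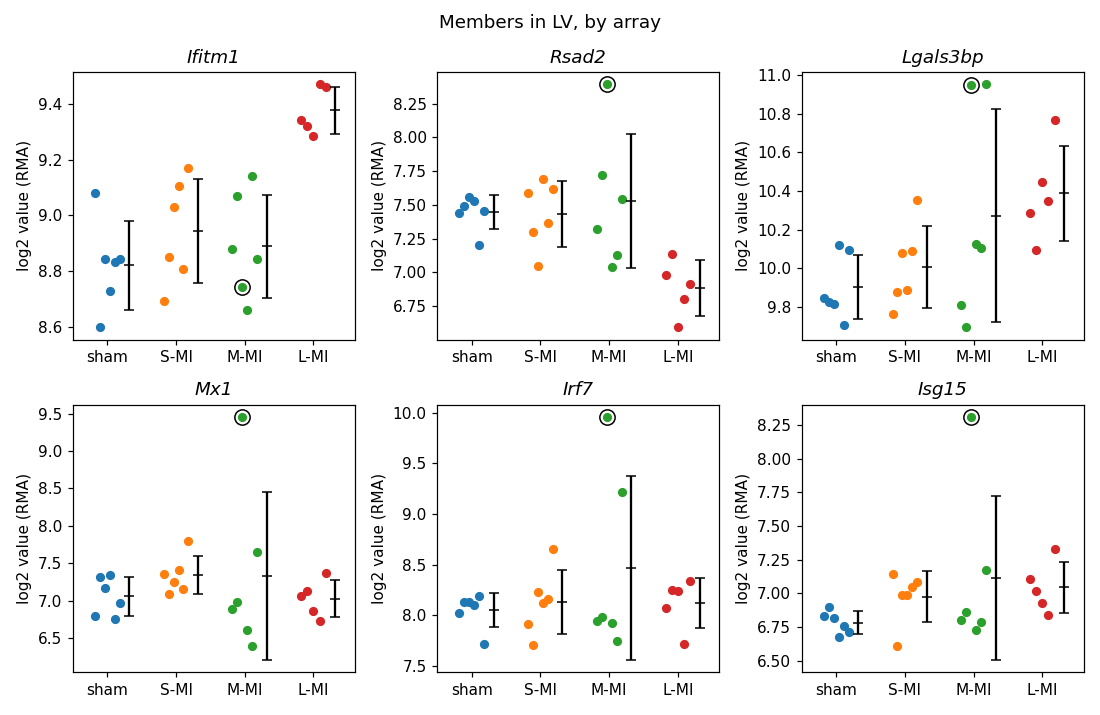
Log2 values (vertical axes) of 6 members in each LV array, by group from sham to L-MI. Points are arrays, bars are the mean ± SD, and the ring marks M-MI replicate 3. L-MI hearts are all above sham for Ifitm1 (9.28 to 9.47) and all below for Rsad2 (6.59 to 7.14), and the ringed array is far above the other M-MI arrays for Mx1 (9.46), Irf7 and Isg15.

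Lgals3bp, which encodes a secreted galectin-binding glycoprotein, had 10.29, 10.09, 10.45, 10.35 and 10.77 in L-MI hearts, against a range of 9.71 to 10.12 and a median of 9.83 in sham. The ranges touched, with 1 L-MI heart inside the sham range. The difference of 0.49 ± 0.19 (SE) did not pass (adjusted p = 0.118). It passed in the fit of the 2 groups alone (adjusted p = 0.0197), which leaves out the wide spread of the M-MI hearts (9.69 to 10.95). Isg15, the ubiquitin-like protein itself, had a median of 7.01 in L-MI and 6.79 in sham, a difference of 0.26 ± 0.19 (adjusted p = 0.483). Its adjusted p depended on the arrays that set the spread: limma fits that left out 1 LV array gave 0.0945 to 0.661. Oas3, of the enzymes that make the activator of RNase L, differed by 0.13 (adjusted p = 0.209), and the groups overlapped.

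**Figure D2:**
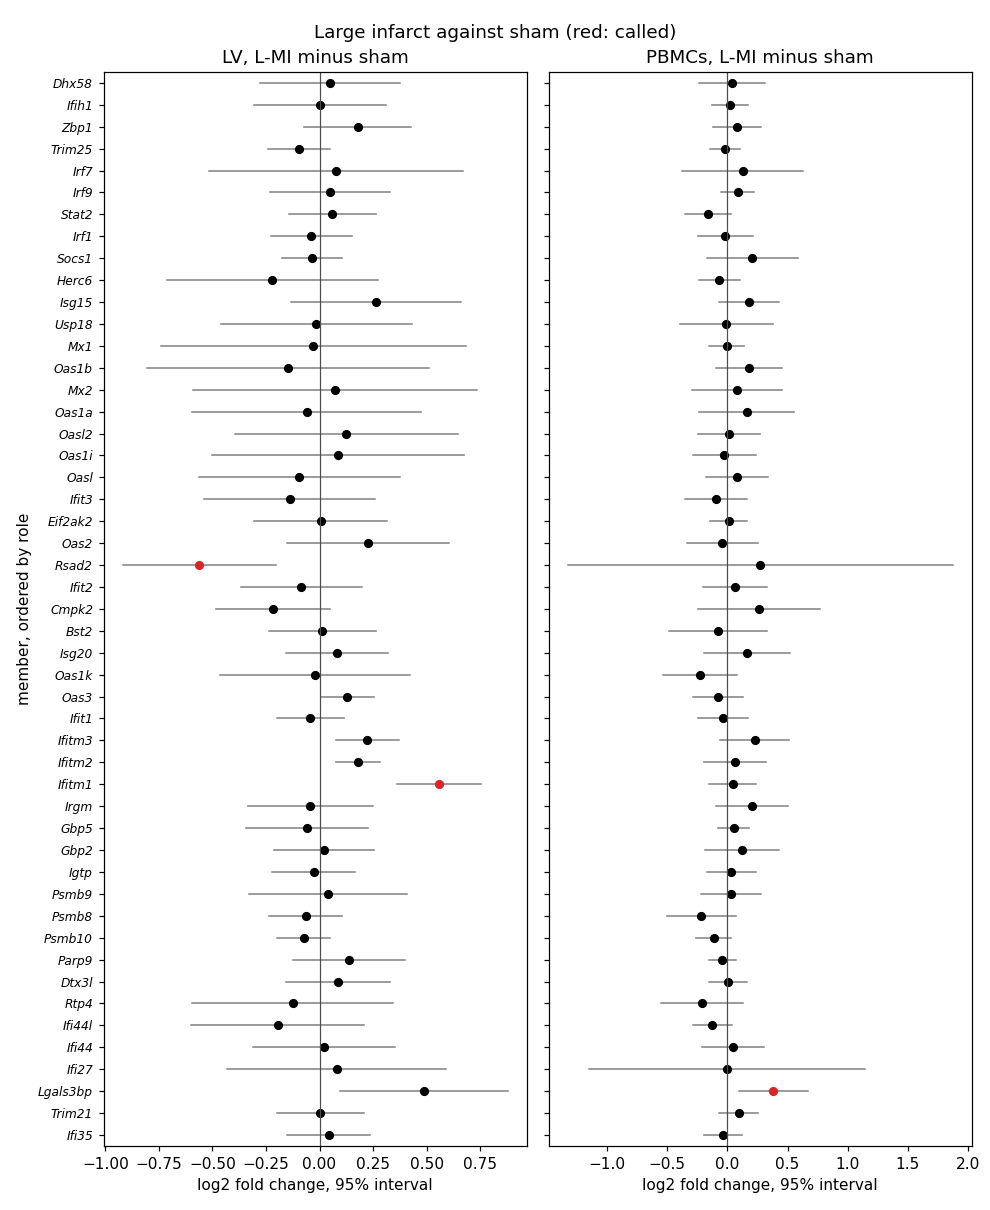
Log2 fold change (horizontal axes) of each of the 49 members, L-MI minus sham, in LV (left) and PBMCs (right), with 95% intervals and called members in red. Called members are Ifitm1 and Rsad2 in LV and Lgals3bp in PBMCs, and most other points lie near 0.

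By role, no member apart from Ifitm1 and Rsad2 was called in L-MI hearts. The 4 sensors differed from sham by -0.10 (Trim25, a ubiquitin ligase that acts on RIG-I) to 0.18 (Zbp1, a sensor of Z-form nucleic acid). The 5 transcription factors and feedback genes differed by -0.04 (Irf1) to 0.08 (Irf7). Stat2 had a median of 8.69 in L-MI hearts and 8.59 in sham hearts, and its difference was 0.06. The other 2 genes of the ISG15 system were Herc6, a ligase that attaches ISG15 in mouse, and Usp18, which removes it. They differed by -0.22 and -0.01. Among the 18 antiviral effectors the range ran from Rsad2 to Oas2 at 0.23, with Mx1 at -0.03, Ifit3 at -0.14 and Ifit1 at -0.04. The 4 interferon-induced GTPases lay between -0.06 (Gbp5) and 0.02 (Gbp2), and the 3 immunoproteasome subunits between -0.07 (Psmb10) and 0.04 (Psmb9), with Psmb8 at -0.06. Parp9 and Dtx3l, which form a complex that modifies histones and ubiquitin, differed by 0.14 and 0.09. The remaining 7 ran from Ifi44l at -0.20 to Lgals3bp. The 95% intervals were not adjusted for the number of genes tested and had a median half-width of 0.29. Differences smaller than that could mostly not be told from no change. A call asked for more, an adjusted p and the fold threshold, and Lgals3bp at 0.49 was not called. The width depended on the spread as well as on the number of arrays. Without M-MI replicate 3 the median SD of the members within LV groups fell from 0.25 to 0.16.

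In M-MI and S-MI hearts no member was called against sham, and none of all 29214 genes was (0%). At an unadjusted p under 0.05 by limma stood 1 member in M-MI (Oas3, 0.15) against 7.03% of all genes, and 0 members in S-MI against 6.33%. These counts depend on M-MI replicate 3, since the LV groups share 1 estimate of the spread. Fitted without that array, 3 members stood under 0.05 in S-MI (Isg15, Ifit2 and Psmb8) and 2 in M-MI (Oas3 and Ifit3). The share over all genes was not counted in those fits. In M-MI hearts 40 of the 49 members lay above sham, against 48.7% of all genes, with a median of 0.10. This rested on 1 heart. Without M-MI replicate 3, 15 of the 49 lay above sham, against 49.2% of all genes, and the median was -0.05. In S-MI hearts 36 of 49 lay above sham, against 51.1% of all genes, with a median of 0.07. Without S-MI replicate 6, 31 of the 49 lay above sham, against 51.3% of all genes, and the median was 0.036. The highest S-MI difference was that of Oas1b at 0.30, and the lowest that of Oas1k at -0.34. Psmb8, a catalytic subunit of the immunoproteasome, had the smallest S-MI p of the members, with a difference of 0.16 (adjusted p = 0.787).

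M-MI replicate 3 stood apart from all other LV arrays in this set of genes. It held the highest of the 23 LV values for 37 of the 49 members (75.5%), against 3.29% of all genes. Against the median of the other 5 M-MI hearts, 47 members were higher, with a median difference of 0.91, whereas the median over all genes was -0.0012. The difference exceeded 0.5 in 36 members, against 1.06% of all genes, and exceeded 1 in 22, against 0.181%. One heart has no replicate, so these values carry no test.

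**Figure D3:**
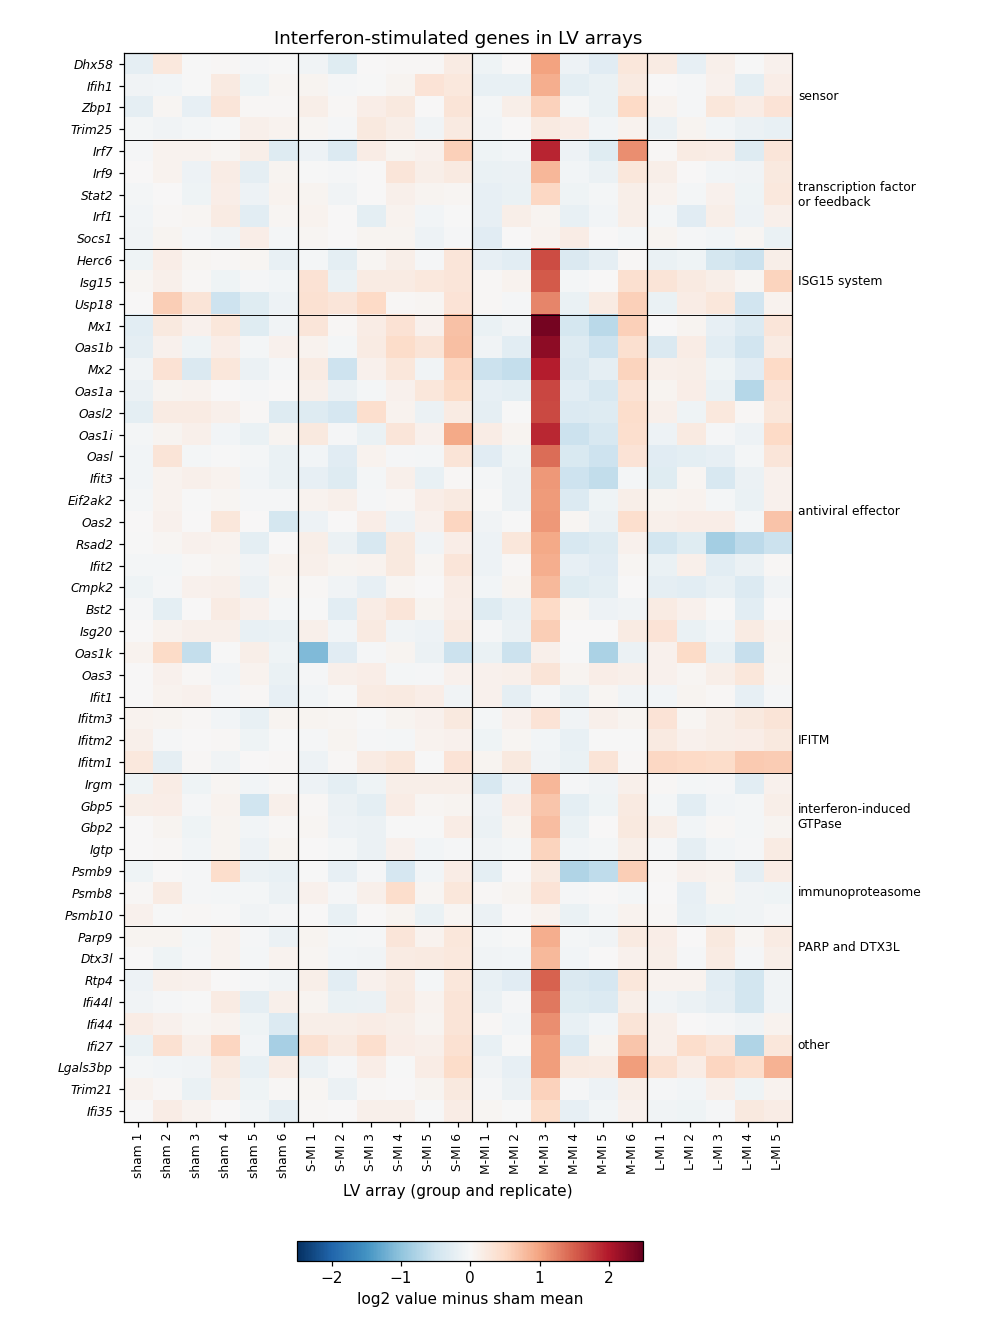
Log2 value of each member minus its mean in sham LV (colour scale, red higher) in each of the 23 LV arrays (columns), with members (rows) grouped by role. The column of M-MI replicate 3 is red in most rows, M-MI replicate 6 is paler, and in the L-MI columns the rows of Ifitm1 and Lgals3bp are red and that of Rsad2 is blue.

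The largest single differences in that heart were those of antiviral effectors. Mx1, a GTPase that traps viral nucleocapsids, had 9.46, against 6.39 to 7.65 in the other M-MI hearts, a 5.93-fold excess over their median. Oas1b had 8.52, against 5.78 to 6.69, a 5.66-fold excess. Mx2 had 9.90, against 7.35 to 8.49, a 4.96-fold excess. Values of this size occurred in none of the other 22 LV arrays, where the highest were 7.79 for Mx1, 7.04 for Oas1b and 8.49 for Mx2. Oas1a, Oas1i, Oasl and Oasl2, of the same enzyme family, exceeded the median by 3.19-fold to 3.78-fold. These genes are close copies and the extent to which their probes share signal was not tested. In all, 16 of the 18 effectors were at their LV maximum, with a median difference of 1.13. Ifit3 had 7.90 against 6.20 to 6.76. The exceptions were Ifit1 (4.77, against 4.61 to 4.94), whose signal was low in every array, and Oas1k (7.59, with 3 higher LV arrays).

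Irf7, the amplifier of the response, had 9.96 in M-MI replicate 3, against 7.75 to 9.22 in the other M-MI hearts, a 4.04-fold excess over their median. Irf9 and Stat2, of the response complex, exceeded the median by 0.97 and 0.63, both at their LV maximum. Irf1 and Socs1 did not stand out (0.13 and 0.08). All 3 genes of the ISG15 system were at their maximum: Herc6 with 9.81, Isg15 with 8.31, against 6.73 to 7.17, and Usp18 with 9.60. Among the sensors Dhx58, Ifih1 and Zbp1 were at their maximum with differences of 1.12, 1.10 and 0.62, and Rig1 (Ddx58) exceeded the median 2.30-fold. Trim25 was at 0.20.

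**Figure D4:**
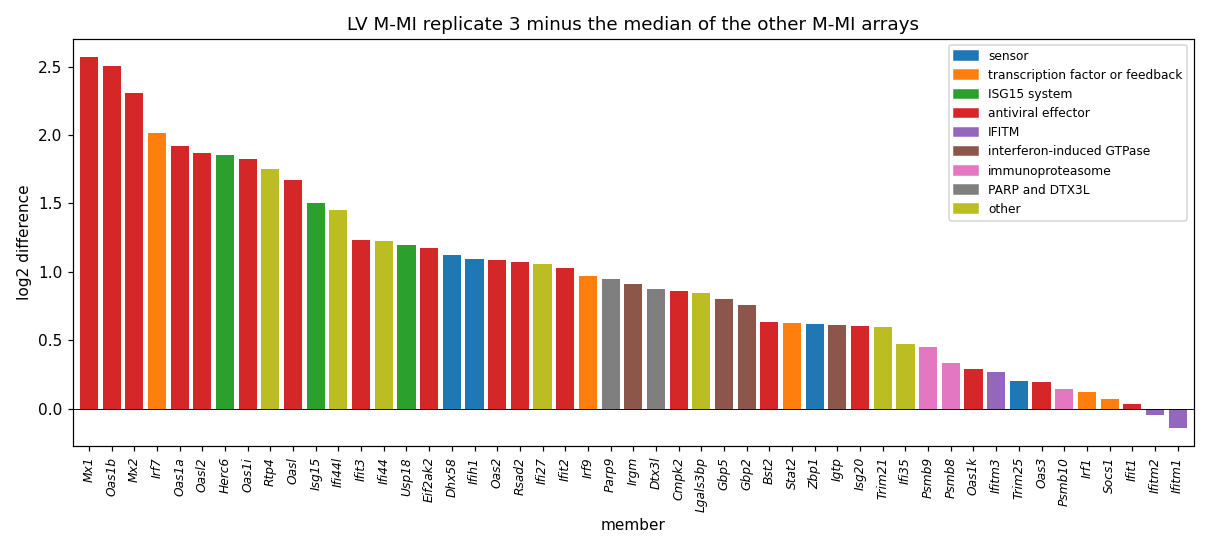
Log2 value of each member in M-MI replicate 3 minus the median of the other 5 M-MI hearts (vertical axis), sorted and coloured by role. Mx1 leads at 2.57, the interferon-induced GTPases lie between 0.61 and 0.91, the immunoproteasome subunits between 0.14 and 0.45, and Ifitm2 and Ifitm1 are below 0.

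The 4 interferon-induced GTPases, which disrupt vacuoles that hold microbes, were all at their LV maximum in the same heart, with smaller differences of 0.61 (Igtp) to 0.91 (Irgm). Psmb8, Psmb9 and Psmb10 differed by 0.33, 0.45 and 0.14, and none was at its maximum. The IFITM genes differed by -0.14 (Ifitm1), -0.05 (Ifitm2) and 0.27 (Ifitm3). So Ifitm1, which was higher in every L-MI heart than in sham, lay below the M-MI median in the heart where most of the set was above it. Members with the response element core in their promoter had a median difference of 0.88 (27 members), and those without it 0.86 (11 members).

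The other genes of the pathway and the cell markers gave the following values in M-MI replicate 3. The mean of the 4 measured interferon genes was 5.16, within the M-MI range of 5.14 to 5.21, and that of 11 receptor and kinase genes was 9.37, within 9.32 to 9.44. Only 4 of the 9 listed interferon genes were measured. Their mean lay between 5.04 and 5.28 in all LV groups, below the lowest array median of 6.52. Values this low cannot show whether interferon expression changed. Of 15 further interferon-induced genes that are no members, 6 were at their LV maximum, among them Slfn4 with 7.44, against 5.68 to 6.63 in the other M-MI hearts. The macrophage marker mean was 8.45, within the M-MI range and below every L-MI heart. T cell markers averaged 6.40 and plasmacytoid dendritic cell markers 7.84, both within the range of sham hearts. Platelet and erythroid markers averaged 7.59, the highest M-MI value. Neutrophil markers averaged 5.13, within the M-MI range of 5.07 to 5.23. Natural killer cell markers averaged 7.13 and fibroblast markers 8.78, each at the low end of its M-MI range (7.13 to 7.40 and 8.78 to 9.04). The part of blood or other cells in the heart's values was not tested.

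M-MI replicate 6 came next, with 43 of 49 members above the median of the other M-MI hearts and a median difference of 0.27. It had 9.22 for Irf7 and held the LV maximum for Lgals3bp (10.95) and Psmb9 (9.19). These 2 are 4.08% of the members, against 2.63% of all genes at their LV maximum in that array. In S-MI replicate 6, 44 members lay above the median of the other S-MI hearts, with a median difference of 0.20. In L-MI replicate 5, 43 members lay above the median of the other L-MI hearts, with a median difference of 0.13. No L-MI heart had more than 1 member at the LV maximum. The wide spread of the set in LV rested mainly on M-MI replicate 3: the median SD within groups was 0.25 for members and 0.13 for all genes, and without that array 0.16 for members and 0.13 for all genes.

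In PBMCs the same genes were compared between L-MI and sham. Lgals3bp was the one member called (2.04%, against 0.924% of all genes, 270 of 29214). It had 10.76, 10.85, 10.20, 10.39 and 10.86 in L-MI PBMCs, against a range of 9.97 to 10.46 and a median of 10.26 in sham PBMCs. The groups overlapped, with 3 L-MI arrays above the highest sham array. The difference was 0.38 ± 0.13 (SE), with a limma p of 0.0136 before adjustment and an exact two-sided permutation p of 0.0346. After adjustment over all genes the limma p was 0.9997, and by limma 0% of the genes had an adjusted p of at most 0.05, while 3.77% had an unadjusted p under 0.05. The call held in all 11 fits that left out 1 array.

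The other 48 members ranged between -0.23 (Oas1k) and 0.27 (Rsad2) in PBMCs, with a median over the 49 of 0.03. The signs of many of these differences rested on PBMC L-MI replicate 2. With all arrays 29 of the 49 members lay above 0, against 47.3% of all genes. Without L-MI replicate 2, 17 members did, against 46% of all genes, and the median was -0.033. In all, 14 members changed sign, among them Rsad2 (-0.18) and Irf7 (-0.13). The share of all genes that changed sign was not counted. Isg15 had a median of 7.10 in L-MI and 6.96 in sham, and Irf7 9.34 in L-MI and 9.23 in sham. Stat2 had the second smallest p of the 49 and differed by -0.16, with a median of 10.03 in L-MI and 10.29 in sham (exact two-sided permutation p = 0.117). Psmb8 differed by -0.22, Psmb10 by -0.11, Ifitm3 by 0.23 and Ifi44l by -0.12, none of them called. Mx1 differed by -0.01 and was even across PBMCs (11.41 to 11.72).

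**Figure D5:**
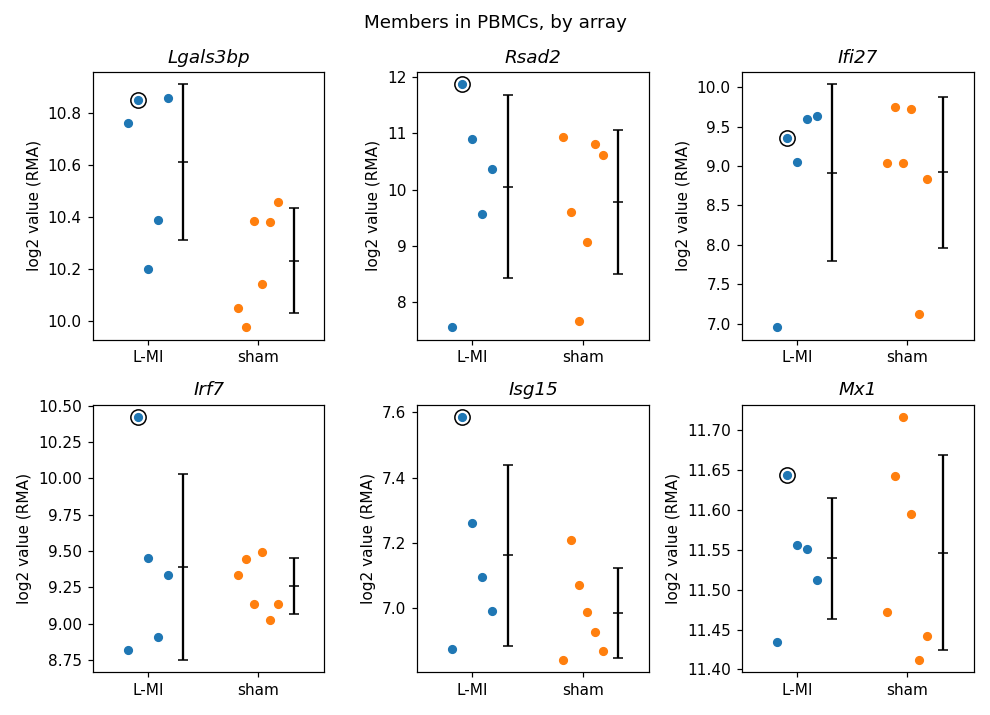
Log2 values (vertical axes) of 6 members in each PBMC array, L-MI left of sham. Points are arrays, bars are the mean ± SD, and the ring marks L-MI replicate 2. Lgals3bp has 3 L-MI arrays above all sham arrays, Rsad2 spreads over 7.55 to 11.88, and Mx1 stays within 11.41 to 11.72.

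Some members varied widely between rats within both PBMC groups. Rsad2 had 7.55, 11.88, 10.91, 9.57 and 10.36 in L-MI PBMCs, against 7.66 to 10.93 in sham PBMCs, and its SD within groups was 1.44, against a median of 0.12 over all genes. The L-MI and sham ranges of Rsad2 overlapped almost fully. Ifi27, which encodes a small mitochondrial membrane protein, had 6.95 in L-MI replicate 1 and 7.13 in sham replicate 5, against 8.84 to 9.76 in the other 9 arrays. PBMC L-MI replicate 2 held the highest of the 11 values for 24 of 49 members (49%), against 15.5% of all genes. Its Irf7 was 10.42, against 8.81 to 9.49 in the other PBMC arrays, and its Cmpk2 was 10.22, against 8.58 to 9.27. In that array 7 of 8 T cell markers were also the highest of the 11, natural killer cell markers averaged 9.65 and macrophage markers 8.58, both the lowest, and platelet and erythroid markers averaged 12.40, the highest. Their part in the members' values was not tested. Which LV and PBMC arrays came from the same rat was not stated.

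The difference between L-MI and sham was then compared between tissues. For Ifitm1 it was larger in LV than in PBMCs by 0.51 ± 0.12 (SE, adjusted p = 0.0235), the one member called, against 2.55% of all genes. In PBMCs Ifitm1 had a range of 9.84 to 10.25 in L-MI, against 9.83 to 10.27 in sham. With the replicate number as a block the adjusted p was 0.0541. For Rsad2 the difference was smaller in LV by 0.83 with a wide interval of -2.49 to 0.82, and it was not called. Leaving out 1 array put this value between -1.46 (without PBMC L-MI replicate 1) and -0.38 (without PBMC L-MI replicate 2).

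Other genes of the pathway were counted in L-MI LV against sham. Of all genes, 3.22% were called in this comparison and 2.08% were called higher. None of 4 measured interferon genes, whose signal was low in LV, and none of 11 receptor and kinase genes was called. Of 12 genes that lead from sensing to interferon, Tlr7, an endosomal receptor for single-stranded RNA, was higher by 0.82 (adjusted p = 0.000167). Of 15 further interferon-induced genes, Mnda, a nuclear protein of myeloid cells, was higher by 0.59 (adjusted p = 0.000101). Both genes are expressed by myeloid cells, and the macrophage markers given above moved in the same hearts. Their part in these differences was not tested. In M-MI and S-MI hearts and in PBMCs none of these 42 genes was called. Of all genes, 0% were called in M-MI and in S-MI hearts, and 0.924% in PBMCs.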

How the data were processed

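Total RNA of 34 samples was hybridised to Affymetrix Rat Gene 1.0 ST arrays. The deposited values are log2 signals that the authors made with RMA and Partek, per their methods and the labels. Their log base was taken from the value range. Gene symbols came from the platform table (15310 of 29214 transcript clusters with 1 symbol), which can be old. No sample column was left out.

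The 57 members, the pathway lists and the marker lists were chosen with earlier results of these data known. Members were named with values if called in any comparison, if among the 6 smallest p values of one, if at either end of their role group, or if Isg15, Mx1, Ifit1, Ifit3, Irf7, Stat2 or Psmb8. IFITM genes were set apart from the other antiviral effectors.

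LV comparisons used limma 3.58.1 in R 4.3.3 with 1 mean per group over 23 arrays, and PBMC comparisons 11 arrays. The contrast between tissues used 22 arrays. P values were adjusted by the Benjamini-Hochberg method over all 29214 clusters. PBMC members also had an exact two-sided permutation test over 462 splits (smallest p 0.00216). The fits were tested on simulated data. Alternatives were other variance models, array weights, filters, scalings, thresholds, a replicate block and leaving out each array. Motifs were counted in RefSeq promoters. The number of arrays limits the precision. Figures were drawn with matplotlib in Python.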

Additional observations from a re-analysis of the deposited data

Results flagged for a closer look

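Within each group of 5 or 6 arrays, the highest or lowest value of each member was set against its nearest neighbour by Dixon's test at the 95% level. The level of about 1 in 20 holds for independent pairs. Members share the same arrays, so the share marked was not compared with it, and a mark only points to a value. The rule marked 29 of 294 member and group pairs (9.86%). Of the 29, 15 were high values of M-MI replicate 3 in LV, the array already described above. These were Isg15 with 8.31, Oas1a with 8.96, Oas1b with 8.52, Oas3 with 6.39, Ifit2 with 9.36, Ifit3 with 7.90, Ifi44l with 9.01, Herc6 with 9.81, Cmpk2 with 8.64, Igtp with 7.11, Psmb8 with 8.04, Parp9 with 8.91, Dtx3l with 8.84, Eif2ak2, the RNA-activated kinase PKR, with 9.23, and Rtp4 with 8.29. Mx1, Mx2 and Irf7 were not marked, since M-MI replicate 6 lay between that array and the rest.

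Among the other marks in infarct LV, Isg15 was low in S-MI replicate 2 (6.61), Oas2 high in L-MI replicate 5 (6.42) and Ifi27 low in L-MI replicate 4 (8.28). In sham LV, Oasl was high in replicate 2 (7.18), Psmb9 high in replicate 4 (9.02), Rsad2 and Gbp5 low in replicate 5 (7.20 and 8.09) and Irf7 low in replicate 6 (7.72). Each of these arrays carried 1 or 2 marks.

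In L-MI PBMCs, Oas1a was high in replicate 2 (8.89), Ifi27 low in replicate 1 (6.95) and Ifitm3 high in replicate 5 (6.54). In sham PBMCs, Ifi27 was low in replicate 5 (7.13), Ifitm2 high in replicate 3 (9.52) and Gbp5 high in replicate 4 (10.92).

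The Ifitm1 difference between L-MI and sham was larger in LV than in PBMCs by 0.51, by limma's contrast between the tissues.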

How the results depend on the processing

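In LV of L-MI against sham, 2 members and 941 of all genes were called. Without variance moderation 1 member (Ifitm1) and 880 of all genes were called. At a fold of at least 1.5, 0 members and 352 of all genes were called. Leaving out 1 array gave 1 to 2. L-MI against M-MI called 2 members and 784 of all genes. It called 1 member with only the 2 groups compared (684 of all genes) and 1 at a fold of at least 1.5 (260). With 1 array left out it called 1 to 2 members. Rsad2 was the member lost without L-MI replicate 3. L-MI against S-MI called 1 member and 725 of all genes. It called 2 members with only the 2 groups compared (590 of all genes) or with limma-trend (746). Without the 30% dimmest genes (708) or with each array centred on its median (722) it also called 2. In these settings Rsad2 joined Ifitm1. L-MI against S-MI called 0 members at a fold of at least 1.5 (254 of all genes) and 1 to 2 with 1 array left out. In PBMCs 1 member and 270 of all genes were called, and 0 of either with adjusted p values. With 1 array left out 1 to 3 members were called. There were 2 without L-MI replicate 2 or 3, and 3 without sham replicate 4, where Psmb8 and Socs1 joined Lgals3bp. The numbers of all genes called with 1 array left out are not given here, so those member counts are not set against a background. The cause was not tested. M-MI and S-MI against sham called 0 members under each alternative. Irf7 in S-MI against sham lay between -0.024 (without S-MI replicate 6) and 0.16.

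Replicate numbers recur between groups, but nothing ties a number to a shared batch. Over 8 pairs of groups, deviations of same-numbered arrays correlated with r between -0.26 and 0.26 over all genes, above 0.1 for 5 of 43 array pairs and in no pair of groups for all. In S-MI against sham LV, and in sham LV against sham PBMCs, 3 of 6 arrays correlated best with their own number. With the replicate number as a block, L-MI against M-MI called 1 member (775 of all genes) and the contrast between tissues 0 (652 of all genes). L-MI against sham called 2, Ifitm1 and Lgals3bp, in place of Rsad2.

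M-MI replicate 3 held the highest LV value for 37 members as deposited, 40 with arrays centred on their medians and 37 quantile normalised again, settings chosen after seeing the data. Signals near the low end of the array, such as Ifit1, are limited by background.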
